A study of Homo sapiens with 8 samples.

Results

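The core of base excision repair was read at 12 h and 6 h after exposure of MRC5 cells, human diploid lung fibroblasts of a single established line, to the oxidised base 8-oxoguanine. The genes were OGG1, MUTYH, NUDT1, APEX1, NEIL1, XRCC1, LIG3, POLB, PARP1 and MPG, 10 in all, and were taken up through every probe set whose platform annotation gave 1 symbol and that symbol alone. This gave 9 of 8746 probe sets on the 12 h arrays and 12 of 22215 on the 6 h arrays, for 9 of the 10 genes, out of 7713 and 11963 genes named on the arrays. NEIL1, a glycosylase for oxidised bases, had no such probe set on either array, and so no signal is given for it. On the 12 h array no probe set named it, and its probe set on the 6 h array also carried a microRNA symbol. POLB, XRCC1, MPG, NUDT1, MUTYH, PARP1 and APEX1 had 1 probe set on each array, OGG1 had 1 at 12 h and 3 at 6 h, and LIG3 had 1 at 12 h and 2 at 6 h.

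Treated cells received 10 µM 8-oxoguanine and mock cells its solvent. Total RNA of 3 treated and 3 mock extracts was read at 12 h, and of 1 treated and 1 mock sample at 6 h on a larger array type, so each time was compared with its own mock only. The labels call the 12 h extracts technical replicates and name no separate cultures. Each p-value below therefore rests on the spread between extracts that the labels call technical, and does not measure the spread between cultures. If each treatment was 1 culture, an effect of treatment cannot be told apart from a difference between the cultures. One protocol text gives an exposure of 6 h throughout, and the time label of each sample was followed instead. The values are deposited MAS5 signals on a linear scale, 1 per probe set and array, scaled to a like mean on every array, and the number of arrays limits their precision.

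Base excision repair removes small base lesions. A glycosylase cuts the damaged base from the sugar, an endonuclease opens the strand at the empty site, a polymerase fills the gap and a ligase seals it. OGG1 removes 8-oxoguanine paired with cytosine, MUTYH removes the adenine misplaced opposite it, and the NUDT1 product destroys oxidised guanine nucleotides before they can be built into DNA. OGG1 protein also binds the free 8-oxoguanine base, the compound added to these cells.

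Promoter sequence is shown for the glycosylase that gives the set its name and for the members with the largest positive and the largest negative difference at 12 h. RefSeq windows of the 250 bases before the annotated start (build GRCh38.p14) were found for 9 of the 10 genes, all but POLB, in 14 windows. In the windows of OGG1, NUDT1 (the upstream of its 2 annotated starts) and APEX1 below, all on the plus strand, capitals mark 3 kinds of motif: the CCAAT box (CCAAT or ATTGG), the GC box (GGGCGG or CCGCCC) and the E-box CACGTG.
OGG1 chr3:9749702-9749951: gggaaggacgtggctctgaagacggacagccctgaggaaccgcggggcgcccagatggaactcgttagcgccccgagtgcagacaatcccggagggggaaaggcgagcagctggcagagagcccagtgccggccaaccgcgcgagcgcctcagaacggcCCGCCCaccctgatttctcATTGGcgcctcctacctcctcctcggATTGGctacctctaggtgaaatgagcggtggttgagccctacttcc
NUDT1 chr7:2241976-2242225: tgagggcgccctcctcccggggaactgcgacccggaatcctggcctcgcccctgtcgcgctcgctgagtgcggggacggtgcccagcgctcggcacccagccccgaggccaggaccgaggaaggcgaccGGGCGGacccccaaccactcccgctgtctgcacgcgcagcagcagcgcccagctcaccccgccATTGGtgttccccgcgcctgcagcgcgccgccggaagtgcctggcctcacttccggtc
APEX1 chr14:20454976-20455225: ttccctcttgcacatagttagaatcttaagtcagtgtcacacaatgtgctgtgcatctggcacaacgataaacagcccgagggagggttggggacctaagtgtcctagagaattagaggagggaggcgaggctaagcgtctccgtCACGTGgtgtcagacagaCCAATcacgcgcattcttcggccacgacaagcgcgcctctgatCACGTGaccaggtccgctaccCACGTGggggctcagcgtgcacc
The OGG1 window held 2 CCAAT boxes, both in the ATTGG direction, and 1 GC box. The NUDT1 window held 1 of each. The APEX1 window held no GC box but 1 CCAAT box and 3 E-boxes. Over any of their windows (1 to 3 a gene), 7 of the 9 genes had a CCAAT box, 8 had a GC box and 4 had the E-box, on either strand. The E-box of NUDT1 lay in its other window, which is not shown. Of 35116 windows of the same length over all genes, 32% held a CCAAT box, 42.6% a GC box and 6.34% the E-box. The member counts are per gene and these shares per window, so they cannot be set side by side. Some windows of MUTYH and of NEIL1 also overlap. The E2F letters TTTGGCGC stood in none of the members' windows (0.55% of all windows), and the antioxidant response element core TGACNNNGC stood in a MUTYH window alone (10.9% of all windows). These are matches of letters and say nothing of binding.

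At 12 h no member passed the threshold. Of 9 probe sets, 8 passed the filter on dim signals (a mean signal of 93.9), and 0 of these 8 had an adjusted p below 0.05 in limma's moderated test with Benjamini-Hochberg adjustment over all 5248 probe sets kept, where 13.2% passed. None of the 8 had an unadjusted p below 0.05 either, against 28.7% of all probe sets kept. Their log2 fold changes, treated over mock, ran from -0.21 for POLB to 0.23 for APEX1 with a median of -0.02, and 5 lay below and 3 above zero. The median of all probe sets kept was 0.01. For 7 of the 8 the 95% interval of the change lay within 1.5-fold in either direction, the exception being XRCC1, and for MPG and PARP1 it lay within 1.2-fold. NUDT1, which was too dim for the filter, had the largest difference and is given below.

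**Figure D1:**
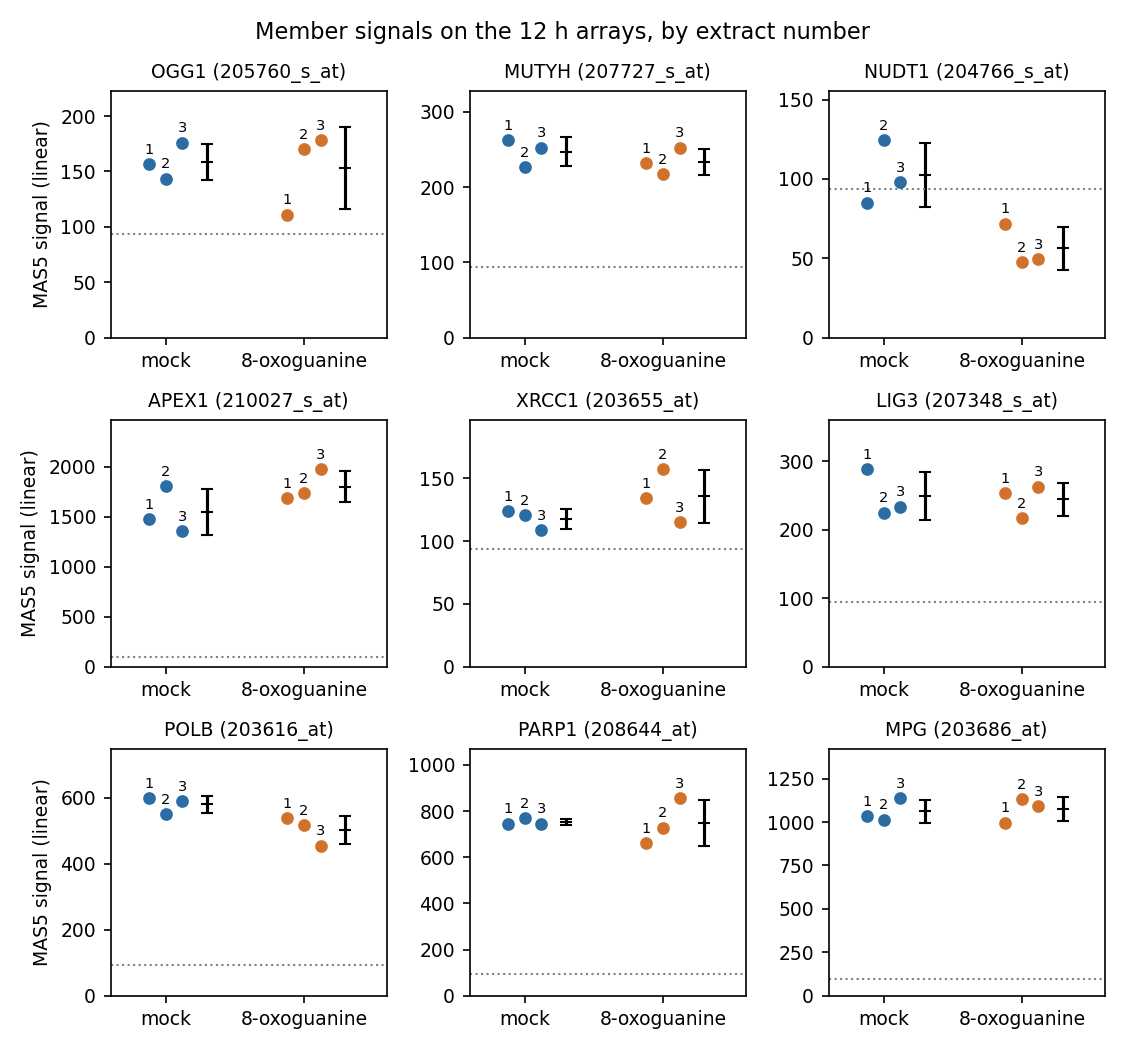
MAS5 signal (linear axis from 0) of the 9 member probe sets on the 3 mock (blue) and 3 treated (orange) arrays at 12 h. Points carry the extract number, black bars are mean ± SD, and the dotted line is the filter limit of 93.9. POLB and NUDT1 are the panels in which the groups do not overlap.

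Among the glycosylases, OGG1 gave signals of 111, 170.2 and 178 in the treated extracts and of 156, 144 and 176 in the mock extracts. A single treated array, that of extract 1, lay below all the others, while the highest value of all was also a treated one. The means were 153 ± 36.7 and 159 ± 16.4 (SD, n = 3), and the log2 fold change was -0.08 (SE 0.21, 95% interval -0.55 to 0.40, limma adjusted p = 0.865). The interval allows a fall to 0.681 or a rise to 1.32 times the mock level. Its coefficient of variation was 24.0% among treated and 10.3% among mock extracts, where the medians over all probe sets kept were 8.73% and 9.76%. The direction of the OGG1 difference was set by single arrays. Without 8-oxoguanine replicate 1 it was 0.14 on the log2 scale, and without mock replicate 3 it was 0.0013.

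MUTYH had signals of 232, 217 and 252 on treated and 263, 226 and 252 on mock arrays. The groups overlapped over most of their range, with a log2 difference of -0.08 (SE 0.13), a 95% interval of -0.37 to 0.21 and a limma adjusted p of 0.751. MPG, the glycosylase for alkylated adenine and hypoxanthine, had 996, 1132 and 1092 on treated and 1033, 1014 and 1139 on mock arrays. Treated and mock values of MPG were interleaved. Its log2 difference of 0.02 (SE 0.08) had the narrowest interval of the set, -0.17 to 0.20, or 0.887 to 1.15 times the mock level, with a limma adjusted p of 0.930.

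NUDT1, the sanitising hydrolase of the nucleotide pool, was dim. Its signals were 71.9, 47.5 and 49.3 in the treated extracts and 85.02, 125 and 97.9 in the mock extracts. Every treated value lay below every mock value, and all 3 treated values and 1 mock value lay under the filter limit. In the fit without a filter its log2 fold change was -0.87 (SE 0.30, 95% interval -1.55 to -0.20), with an unadjusted p of 0.0166 and a limma adjusted p of 0.135 over 8746 probe sets. It therefore did not pass, and the size of the difference is uncertain at these signals. In that fit 6.35% of probe sets passed, and at 24.8% of them the groups did not overlap. With each of the 6 arrays left out in turn, the difference ran from -1.06 to -0.72 and the limma adjusted p from 0.160 to 0.323. Its sign could not turn there, because the groups did not overlap.

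APEX1, the main endonuclease at sites without a base, had 1688, 1734 and 1979 on treated and 1477, 1807 and 1359 on mock arrays. The treated values were mostly the higher ones, but mock replicate 2 lay above 2 of them. The log2 fold change was 0.23 (SE 0.11, 95% interval -0.02 to 0.47, limma adjusted p = 0.216). Without mock replicate 2 it was 0.34 with an adjusted p of 0.0414, the only setting tried in which any member passed. Over its 13 other settings the adjusted p of APEX1 ranged from 0.0414 to 0.507.

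POLB, the polymerase that fills the short gap, had 537, 517 and 455 on treated and 599, 551 and 589.8 on mock arrays. It was the only member past the filter whose groups did not overlap, 1 of 8, against 33.9% of all probe sets kept. All treated values were lower. The log2 fold change was -0.21 (SE 0.10, 95% interval -0.43 to 0.01) and did not pass (limma adjusted p = 0.195). Over 13 other settings it ran from -0.26 to -0.14, with limma adjusted p between 0.169 and 0.391. Leaving out 1 array could not turn its sign, because the groups did not overlap. The other filters, the fit with no intensity trend and the replicate block left the estimate itself unchanged.

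XRCC1, the scaffold that holds POLB and the ligase at the break, had 134, 158 and 115 on treated and 124, 121 and 109 on mock arrays. Only OGG1 had a wider interval among the members past the filter than XRCC1, -0.24 to 0.63, around a log2 difference of 0.20 (SE 0.19) with a limma adjusted p of 0.568. The upper bound corresponds to 1.55 times the mock level. LIG3, the ligase bound to XRCC1, had 253, 217 and 262 on treated and 289, 225 and 234 on mock arrays. Treated and mock values of LIG3 were mixed, and its log2 fold change was -0.02 (SE 0.15, 95% interval -0.35 to 0.31, limma adjusted p = 0.939). Leaving out 8-oxoguanine replicate 2 or mock replicate 1 turned its sign, to 0.06 and 0.09.

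PARP1, the sensor of strand breaks that recruits XRCC1, had 661, 728 and 857 on treated and 745, 769 and 746 on mock arrays. The treated arrays lay on both sides of a tight mock group, with coefficients of variation of 13.3% and 1.82%. The log2 fold change was -0.02 (SE 0.10, 95% interval -0.25 to 0.21, limma adjusted p = 0.938), and without 8-oxoguanine replicate 1 it was 0.07.

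**Figure D2:**
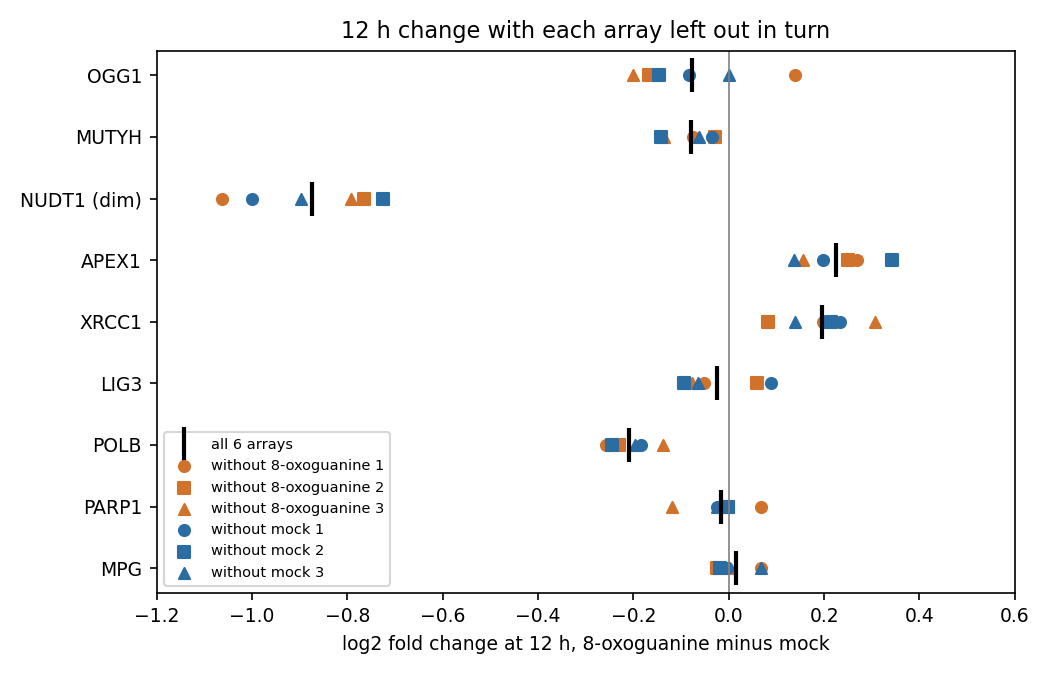
Log2 fold change at 12 h (treated minus mock) of each member with all 6 arrays (black bar) and with each array left out in turn (orange, a treated array; blue, a mock array). OGG1 moves from -0.20 to 0.14, while MUTYH, NUDT1 and POLB stay below and APEX1 and XRCC1 above zero in all 6. For NUDT1 and POLB, whose groups do not overlap, the sign could not turn.

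The pattern of OGG1 over the 6 arrays at 12 h was most like those of AGPAT4 (Pearson's r 0.968), ADD3, an adducin of the membrane skeleton (0.964), and BCAS2, a splicing factor (0.945), among 4744 other probe sets with 1 symbol. With 6 arrays that share their extracts with every gene read on them, this is a description. AGPAT4, ADD3 and BCAS2 had log2 fold changes of -0.24, -0.01 and -0.05.

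Other genes of the pathway were read in the same fit, 1 probe set a gene. Of 17 genes that serve long-patch repair and replication alike, 5 fell, none rose and 12 did not pass. Their median log2 fold change was -0.21. Of all probe sets kept, 6.65% fell and 6.59% rose. The list was chosen with earlier results of these data known, and its separate count after seeing the data. The shares beside it are therefore no test of the list. PCNA, the sliding clamp, went from a signal of 918 ± 197 in mock to 482 ± 22.9 in treated extracts, and LIG1, the replicative ligase, from 178 ± 18.6 to 92.6 ± 5.23 (SD, n = 3 each). Their log2 fold changes were -0.91 (SE 0.14) and -0.94 (SE 0.18), with limma adjusted p = 0.00307 and 0.00896. POLE2 and POLE3, subunits of DNA polymerase epsilon, fell by 0.97 (SE 0.26) and 0.41 (SE 0.08), and FEN1, the flap endonuclease, fell by 0.49 (SE 0.13). The calls of PCNA, LIG1 and POLE3 held in all settings that could be run for them, while FEN1 and POLE2 lost theirs with no filter and with no intensity trend. FEN1 also lost it without treated replicate 1 or 2 or mock replicate 1 or 3, and POLE2 without any one array but treated replicate 2, with adjusted p up to 0.118 and 0.115. The treated signal of LIG1 lay under the filter limit, so the size of its fall is uncertain. LIG1 thus fell beside a LIG3 that did not pass, but whether the 2 ligases differ was not tested.

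Of 5 other glycosylases, UNG, which removes uracil, fell (-0.57, SE 0.16, limma adjusted p = 0.0467), and the other 4 did not pass. UNG lost its call without any one of the arrays except mock replicate 2, with adjusted p from 0.0809 to 0.144, and also with median centring, no filter, no intensity trend and the replicate block (0.0516 to 0.0885). Of 5 end-processing and short-patch partners kept, HMGB1, a chromatin protein and cofactor of the pathway, fell (-0.29, SE 0.07, limma adjusted p = 0.0266), which is uncertain because near-identical copies of this gene exist, and it lost its call without any one array but 8-oxoguanine replicate 3, with no intensity trend (0.0857) and with the replicate block (0.0557). Of 3 genes of the nucleotide pool kept, ITPA, which destroys deaminated purine nucleotides, fell (-0.34, SE 0.09, limma adjusted p = 0.0303), a call that was lost when mock replicate 2 or 3 or either of the treated replicates 1 and 2 was left out, with no intensity trend (0.0602) and with the replicate block (0.0645). No gene of these 3 lists rose, where 6.59% of all probe sets kept rose and 6.65% fell. The lists hold few genes, and no difference between them and the members was tested.

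**Figure D3:**
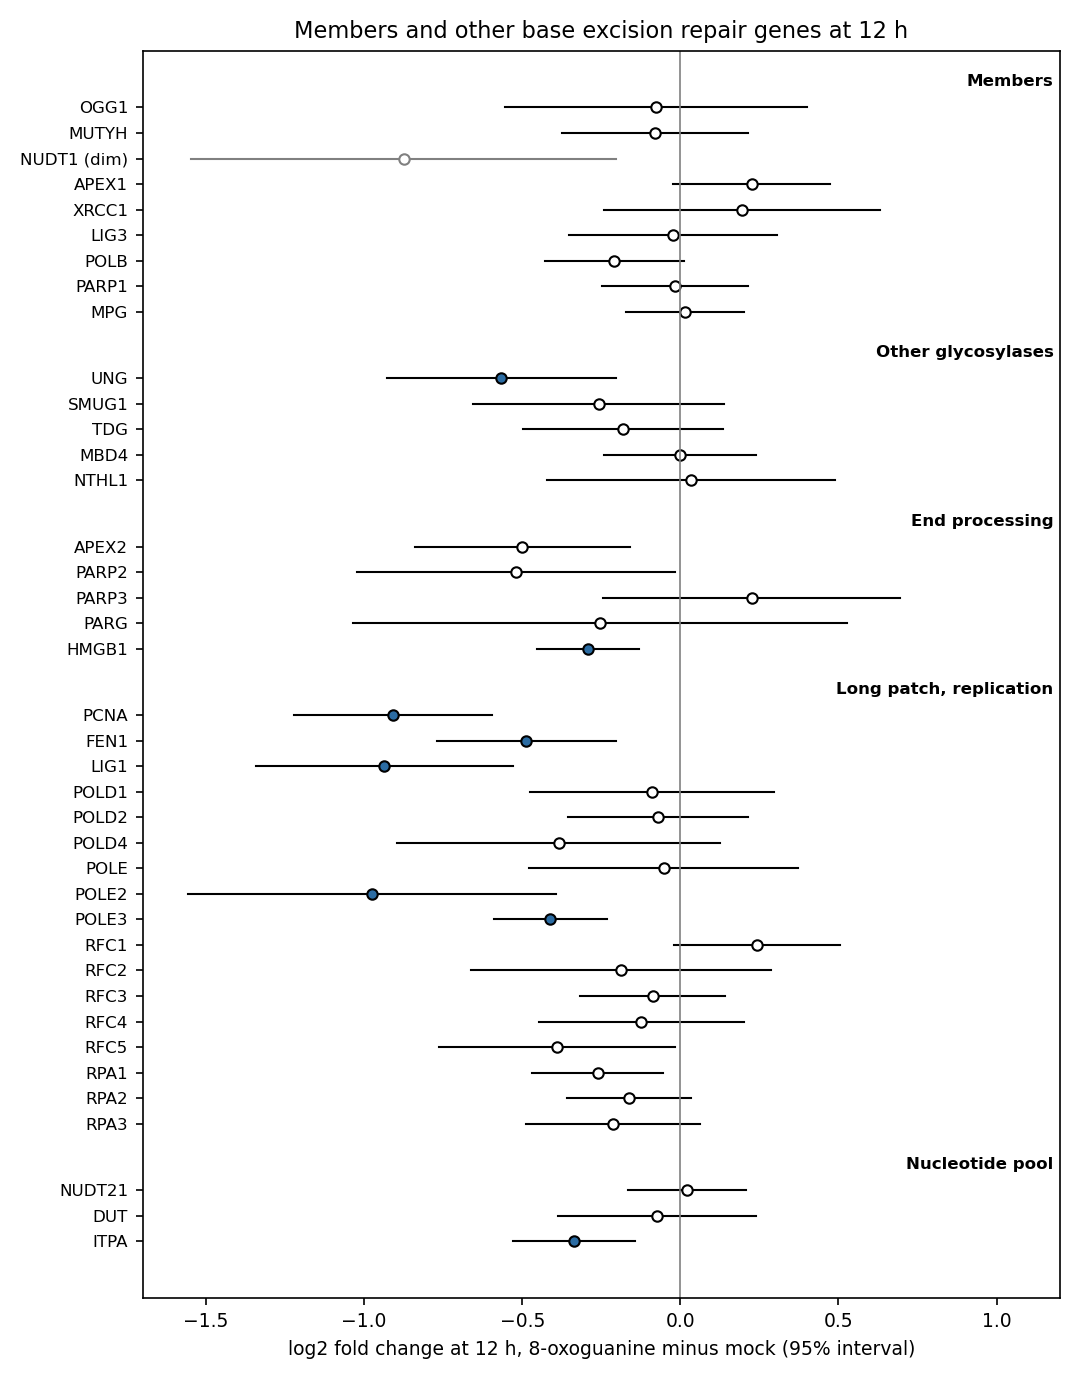
Log2 fold change at 12 h (treated minus mock) with its 95% interval for the members and for other genes of base excision repair and the nucleotide pool. Filled points passed the threshold, open ones did not, and grey marks the dim NUDT1, from the fit without a filter. The filled points are all lower in treated cells and none is a member.

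Each treatment had a single array at 6 h, so nothing could be tested or checked against replicates. None of the 12 member probe sets, of which 9 passed the filter, differed by 2-fold, where 1.34% of the 11108 probe sets kept did. Their log2 ratios, treated over mock, ran from -0.75 to 0.35, with 7 below and 5 above zero. Median centring raised every ratio by 0.12, after which 3 lay below and 9 above zero, with the same split after quantile normalization. The median of all probe sets kept moved too, from -0.03 as deposited to 0.08 once centred and 0.02 once quantile normalized. The member medians were -0.03, 0.08 and 0.06 in the same order, so a count around zero is not a count around the kept probe sets. The directions of the small ratios therefore depend on the scaling, and those of OGG1, MUTYH, NUDT1 and POLB on the probe sets shared with the 12 h array turned around zero. Against the median of the probe sets kept, OGG1, MUTYH and NUDT1 lay below and POLB above, both as deposited and once centred. After quantile normalization NUDT1 lay below that median and OGG1, MUTYH and POLB above it.

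The OGG1 probe set present at both times, 205760_s_at, had a signal of 149.8 on the treated and 157 on the mock array (log2 ratio -0.07, or 0.05 after median centring). Its other 2 probe sets were dim and pointed in opposite directions, 205301_s_at with 96.3 and 134 (-0.48) and 215272_at with 48.5 and 43.3 (0.16). MUTYH had 294 and 304 (-0.05), and MPG 1074 and 849 (0.34). MPG gave 0.45 after median centring and 0.42 after quantile normalization. Median centring raised every ratio, so it could not turn a positive one.

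NUDT1, just under the filter limit of 148 at 6 h, had 142 on the treated and 154 on the mock array (-0.11, or 0.01 after median centring). APEX1 had 2733 and 2574 (0.09), XRCC1 237 and 209 (0.18), and POLB 682 and 689 (-0.02). PARP1 had 1461 and 1786 (-0.29), with -0.17 after median centring and -0.26 after quantile normalization. The shift of median centring was too small to turn its sign. The 2 probe sets of LIG3 disagreed. One, 207348_s_at, had 269 and 211 (0.35), while 204123_at had 126 and 212 (-0.75), the largest ratio of the set, and 4.35% of the probe sets kept had a larger one in either direction. Because they disagreed, no direction can be given for LIG3 at 6 h. After quantile normalization they gave 0.46 and -0.63, and the shift of median centring was too small to turn either sign. The 2 arrays stood apart at high signals, with a maximum of 22762 on the treated and 10699 on the mock array. The 10 fibroblast markers kept at 6 h, bright genes such as VIM (1.31) and COL1A2 (1.04) among them, had a median log2 ratio of 0.77, against -0.03 for all probe sets kept, and the part of this in the members' ratios was not tested.

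**Figure D4:**
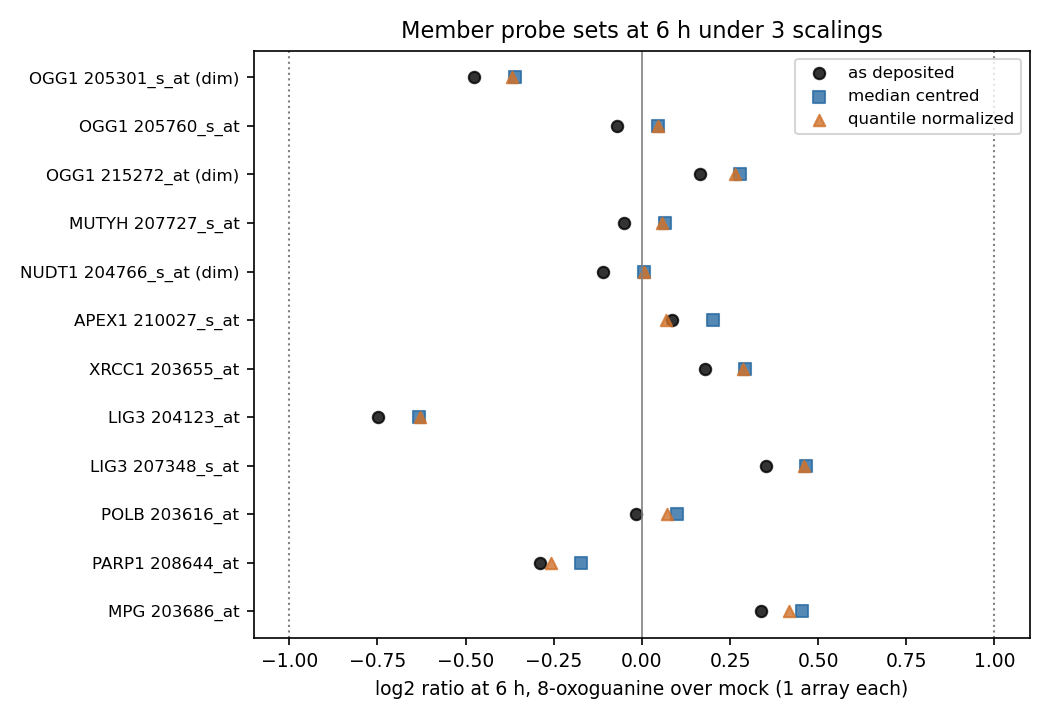
Log2 ratio at 6 h (8-oxoguanine over mock, 1 array each) of the 12 member probe sets as deposited (black), median centred (blue) and quantile normalized (orange). The dotted lines mark 2-fold, which no probe set reaches, and the 2 LIG3 probe sets lie on opposite sides of zero.

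The arrays and cells were checked against their labels. Pearson's r of log2 signals over the probe sets kept was 0.979 to 0.989 for pairs of 12 h arrays of one treatment and 0.964 to 0.975 across treatments. The actin control probe sets, read as the ratio of 3' to 5' signal, a sign of RNA quality, gave 0.999 to 1.07 on the treated and 0.889 to 0.995 on the mock arrays at 12 h, without overlap. The same ratio for GAPDH was 0.802 to 0.843 and 0.779 to 0.826 and overlapped. The part of RNA quality in the results was not tested. All 8 fibroblast markers on the 12 h array passed the filter, with summed signals of 60463 to 74488 in treated and 61459 to 74761 in mock cells. These sums rest mostly on COL1A1, COL1A2 and VIM. Of the 8, LUM (1.07, SE 0.17) and PDGFRB (0.30, SE 0.08) rose and S100A4 fell (-0.58, SE 0.09), with limma adjusted p = 0.00340, 0.0446 and 0.00302, and 5 did not pass. Of 10 epithelial, endothelial and blood markers 3 passed it, KRT19, PECAM1 and CD3E, none was listed at 0, and their summed signal was 432 to 521 in treated and 572 to 730.0 in mock cells. Of the 3, KRT19 fell (-1.27, SE 0.17, limma adjusted p = 0.00145), and its part in the results was not tested.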

How the data were processed

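Each probe set of each array has 1 deposited intensity, on a linear scale. The submitters' processing notes name MAS5 as its source, with no settings given. The trimmed mean of every array lay between 500.1 and 500.5. Log2 of the intensity was taken without further scaling and control probe sets were left out. Probe sets with a mean log2 value below the 40th percentile at 12 h (a signal of 93.9) or the 50th at 6 h (148) were left out of the main fit, and dim members are given with their values. At 12 h, 7840 of 8746 probe sets had 1 symbol in the platform annotation, 388 several and 518 none, and at 6 h 19064 of 22215, 1043 and 2108.

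Treated and mock extracts at 12 h were compared in R 4.3.3 by the moderated test of limma 3.58.1, with an intensity trend in eBayes. Tests were two-sided, and p-values were adjusted by Benjamini and Hochberg's method over all probe sets fitted, with a threshold of 0.05. NUDT1 took its p from the fit without a filter. Intervals are those of the moderated fit, not adjusted for the number of genes. On simulated data with the means and spreads of the 5248 probe sets, the test recovered 84 of 100 changes of 2-fold and 56 of 100 of 1.5-fold, with 6 false calls. All members were named, with the genes of each repair list that passed (otherwise up to 2 with the largest change) and the 3 probe sets most like OGG1. The brightest probe set stood for a list gene. The members and lists were chosen with earlier results of these data known.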

Additional observations from a re-analysis of the deposited data

How the results depend on the processing

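Of 8 members kept at 12 h, 0 passed under median centring, quantile normalization, no filter (9 members), a filter at the 60th percentile (4 members), an added constant, no intensity trend and the extract number as a block. With single arrays left out the count was 0 to 1. The count of all probe sets called, 695, was 371 to 649 with an array left out, lowest without 8-oxoguanine replicate 1 (371), replicate 2 (386) and mock replicate 3 (451). The 10 calls among the other repair genes became 6 with the 60th percentile filter and 5 without the intensity trend, and 4 to 8 with an array left out. The long-patch count of 5 became 3 with that filter, 3 with no filter, 3 without the trend, and 3 to 4 with an array left out, among them 3 without 8-oxoguanine replicate 1, mock replicate 1 or mock replicate 3. The stricter filter tested fewer of these genes, 28 in place of 51. For the other changes the cause was not tested.

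The sign turned for OGG1 without 8-oxoguanine replicate 1 (0.14) and without mock replicate 3 (0.0013), for PARP1 without 8-oxoguanine replicate 1 (0.0687), and for LIG3 without 8-oxoguanine replicate 2 (0.0599) or mock replicate 1 (0.0877). MPG turned with median centring (-0.0003) and without 8-oxoguanine replicate 2 (-0.0241), mock replicate 1 (-0.0037) or mock replicate 2 (-0.0173). At 6 h, the 149 probe sets at 2-fold (42 higher) became 148 (88 higher) with median centring, 83 with quantile normalization, 3167 with no filter and 67 with the 70th percentile filter, and no member reached 2-fold in any. With arrays left out in turn, the values ran from -0.2016 to 0.14 for OGG1, -0.0934 to 0.0877 for LIG3, -0.1184 to 0.0687 for PARP1 and -0.0241 to 0.0681 for MPG. Same-numbered 12 h extracts did not deviate together (r of 0.08, -0.15 and -0.05), and pairs with unlike numbers gave -0.18 to 0.20. With 3 arrays a group this cannot settle whether the numbers pair the extracts. With the replicate block 513 probe sets, 0 members and 7 of the other repair genes passed. The settings for NUDT1 that combine no filter with another choice, and the count of the long-patch list alone, were chosen after seeing the data. NUDT1 stayed between -1.06 and -0.63 in these. OGG1, XRCC1 and NUDT1 had the lowest mean signals and the widest intervals of the members at 12 h. Whether one follows from the other was not tested.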

Other observations

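The other excision repair pathways were read in the same 12 h fit. Of 17 genes of nucleotide excision repair, which removes bulky lesions, XPC rose, DDB2 fell and 15 did not pass. This count is near the 13.2% of all probe sets kept that passed. XPC, the damage sensor, went from 426 ± 14.3 in mock to 621 ± 103 in treated extracts (SD, n = 3 each). Its log2 fold change was 0.53 (SE 0.12), with limma adjusted p = 0.0189. DDB2, which recognises ultraviolet damage, went from 267 ± 25.8 to 167 ± 17.1 (SD, n = 3 each), a log2 difference of -0.67 (SE 0.15) with limma adjusted p = 0.0157. The median of the list was -0.07. The call of XPC held in all 13 other settings and that of DDB2 in 11 of 12, the exception being without 8-oxoguanine replicate 1 (adjusted p = 0.0654). Of 4 genes of mismatch repair kept by the filter none passed, and MLH3 and MSH6 had the largest differences, -0.25 (SE 0.27) and 0.21 (SE 0.10). EXO1, an exonuclease of mismatch repair, was too dim for the filter, like NUDT1, and is named after its values were seen. It had 144 ± 13.2 in mock and 61.3 ± 25.6 in treated extracts (SD, n = 3 each), with no overlap. In the fit without a filter its log2 difference was -1.31 (SE 0.32), with limma adjusted p = 0.0495. The size of the EXO1 difference is uncertain because the treated signal lay under the filter limit. Whether this call holds in other settings was not tested.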
